A study of Mus musculus with 24 samples.

Results

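Lipid droplet genes were followed in mouse liver after treatment with MitoCDNB. The 9 genes were taken by symbol from a deposited table of 24421 genes: the perilipins Plin2, Plin3, Plin4 and Plin5, the CIDE genes Cidec and Cideb, the triglyceride lipase Pnpla2, its inhibitor G0s2, and the droplet-associated hydrolase Ldah. All 9 were found, and all 9 passed the filter on low counts. RNA came from the medial liver lobe of C57BL/6 mice injected with MitoCDNB at 5 mg/kg or with vehicle containing 0.1% ethanol. Livers were sampled 1 h or 4 h later, so that each combination of treatment and time formed a group, with 6 libraries in each of the 4. The labels give no sex, age or feeding state, and each time had its own vehicle group. MitoCDNB is chlorodinitrobenzene joined to a lipophilic cation that carries it into mitochondria, where it was designed to deplete glutathione and block thioredoxin reductase.

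Hepatocytes store surplus fatty acids as triglyceride in lipid droplets, which are covered by perilipins. Plin2 is the main constitutive coat protein of liver droplets, Plin3 is a cytosolic protein that binds nascent droplets, Plin4 coats small new droplets and is best known from fat and muscle, and Plin5 holds droplets close to mitochondria in tissues that oxidise fat. CIDE proteins act where droplets touch: Cidec drives their fusion into larger ones, and Cideb is the form most used by hepatocytes, with a role in lipidation of very low density lipoproteins. Pnpla2, also called ATGL, cleaves the initial fatty acid from triglyceride. G0s2 binds Pnpla2 and blocks it, whereas Abhd5 activates it. Many of these genes are known targets of the fasting-activated nuclear receptor PPARα.

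Total counts ran from 25.1 to 37.2 M per library, and counts of the 9 genes from 63 (Cidec) to 15715 (Plin2). All 8 hepatocyte markers were present in every group, with a summed level of 38100 to 62100 CPM (a gene's count per 1 M counts of its library). In bulk tissue, fewer cells of a type and less RNA per cell cannot be told apart. A pair of 4 h libraries, vehicle replicate 1 and MitoCDNB replicate 2, stood apart from the others of their groups. Of the 9 genes, 7 were highest in that vehicle library and 6 in that MitoCDNB library, against 21.9% and 22.3% of all 13833 genes tested. Among 22 PPARα targets and fasting genes the same libraries were highest for 13 and 17. Cdh4, chosen after its values were seen as a gene that separated the groups at 4 h, was at 0.662 CPM in the vehicle library (group range 0.618 to 1.16) and at 4.78 CPM in the MitoCDNB library (4.10 to 6.02). Since the gene was chosen on these libraries, this is no check of their labels. Adipocyte markers other than Adrb3 summed to 3.34 CPM in vehicle replicate 1, with 6 of 7 detected, against a group median of 0.118 CPM. In MitoCDNB replicate 2 they summed to 0.0642 CPM. The planned list held Adrb3 too, and its 8 markers summed to 8.39 CPM in vehicle replicate 1 (group range 4.94 to 8.39, median 7.26). In MitoCDNB replicate 2 the sum of all 8 was 8.63 CPM (group range 5.36 to 9.12). With Adrb3 included, vehicle replicate 1 therefore did not stand apart. Plin4, Cidec and Pnpla2 are also adipocyte genes, and the part of these transcripts in vehicle replicate 1 was not tested. Results at 4 h are given with and without the pair. The pair was set apart by levels that include those of the 9 genes. Fits without these libraries are therefore a description, and their p values are no independent test. In the other direction, vehicle replicate 4 and MitoCDNB replicate 1 of 4 h were each lowest for 6 of the 9 genes, against 2838 and 2285 of all 13833 genes, and for 15 and 16 of the 22 PPARα targets and fasting genes. Markers of Kupffer cells, the liver's macrophages, summed to 459 CPM in that vehicle library and to 158 to 221 CPM in the others of its group. Endothelial markers summed to 180 to 202 CPM in vehicle and 157 to 178 CPM with MitoCDNB at 4 h, without overlap. Stellate cell markers had medians of 183 and 226 CPM (141 to 214 and 182 to 295). The part of these cells in the 4 h results was not tested. Brain transcripts were low but higher in replicates 4 to 6 of 1 h (summed markers 11.6 to 16.5 CPM) than in replicates 1 to 3 (6.46 to 10.1 CPM). At 4 h their sums were highest in the pair of libraries that stood apart. They were 11.4 CPM in vehicle replicate 1 (group median 7.41) and 13.1 CPM in MitoCDNB replicate 2 (group median 6.79). The part of brain transcripts in the results was not tested.

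Sequence upstream of the start sites was read for the genes on which the results turn, namely Ldah, called at both times, Plin5, Pnpla2 and G0s2, called between the times of MitoCDNB, and Plin2, the most abundant coat gene. RefSeq windows of 300 bases (250 before and 50 after each gene start, build GRCm38.p6) were held for all 9 genes, 12 windows in all. The stretches below end before any annotated transcript. They run 5′ to 3′ on the strand of the gene, and capitals mark the core motif of nuclear receptor sites, AGGTCA, or its reverse complement, which the stretches of Pnpla2, G0s2 and Ldah lack.
Plin2, chr4:86670218-86670309, minus strand: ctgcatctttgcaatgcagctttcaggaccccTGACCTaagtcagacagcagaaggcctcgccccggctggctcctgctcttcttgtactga
Plin5, chr17:56117607-56117798, minus strand: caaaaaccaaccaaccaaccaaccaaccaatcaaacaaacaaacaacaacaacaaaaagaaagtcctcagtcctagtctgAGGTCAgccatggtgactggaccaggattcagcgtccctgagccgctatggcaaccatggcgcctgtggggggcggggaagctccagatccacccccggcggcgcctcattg
Pnpla2, chr7:141454938-141455187, plus strand: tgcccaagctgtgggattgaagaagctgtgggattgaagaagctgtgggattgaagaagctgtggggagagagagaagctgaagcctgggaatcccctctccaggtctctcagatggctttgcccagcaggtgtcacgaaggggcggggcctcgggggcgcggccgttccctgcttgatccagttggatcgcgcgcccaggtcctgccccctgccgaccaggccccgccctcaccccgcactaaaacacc
G0s2, chr1:193273218-193273438, minus strand: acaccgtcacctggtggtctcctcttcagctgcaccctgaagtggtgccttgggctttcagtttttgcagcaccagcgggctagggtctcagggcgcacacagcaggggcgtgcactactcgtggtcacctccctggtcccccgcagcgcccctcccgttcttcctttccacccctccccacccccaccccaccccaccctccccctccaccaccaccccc
Ldah, chr12:8207876-8208094, plus strand: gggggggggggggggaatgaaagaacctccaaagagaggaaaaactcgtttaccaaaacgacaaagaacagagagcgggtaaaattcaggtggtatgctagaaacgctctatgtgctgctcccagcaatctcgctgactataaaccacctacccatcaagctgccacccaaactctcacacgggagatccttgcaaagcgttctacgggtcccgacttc
Both strands were searched for 5 motifs. AGGTCA was found at bases -218 to -213 of Plin2 and -170 to -165 of Plin5, counted from the RefSeq start, and again at bases 14 to 19 of the second Plin5 window. It occurred in 16.3% of all 32851 mouse promoter windows, so its presence in 3 of the 12 windows is not unusual. A direct repeat of AGGTCA with any 1 base between the copies, to which PPARα binds and which contains AGGTCA, was in none of the 12 and in 0.0396% of all. The cAMP response element TGACGTCA lay across the Ldah start (bases -7 to 1 of the earlier window, and the same site at -74 to -67 of the other) and occurred in 1.79% of all windows. CACGTG lay across the Plin2 start (bases -4 to 2) and was in 7.15% of all. The FOXO motif TGTTTAC was in none of the 12 and in 3.65% of all. These matches describe letters in short windows and do not show binding.

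Levels were compared between genes as CPM divided by the length of the gene's exons in kilobases. In vehicle livers at 1 h, Cideb had a mean of 95.6 CPM per kb (range 86.0 to 101 over 6 libraries) and Plin2 of 72.4 (59.6 to 89.8), with overlapping ranges. Both lay above all others. G0s2 (19.3 ± 19.8, SD), Pnpla2 (14.4 ± 0.695) and Plin5 (13.3 ± 2.53) had overlapping ranges in the middle. Plin3 (5.75 ± 0.912), Ldah (3.92 ± 0.392), Plin4 (2.91 ± 0.637) and Cidec (1.73 ± 0.660) were lower still, each overlapping the next, and all lay below Plin5 and Pnpla2. In MitoCDNB livers at 1 h, G0s2 stood lower in this order, at 6.93 ± 1.61 CPM per kb, and its range of 4.97 to 8.77 was below that of Plin5 (12.6 to 19.6). At 4 h it was back in the middle group in both treatments. The Cideb value is uncertain: 1583 bases of the gene overlap Nop9, and Nop9 counts were 1.02 to 1.07 times those of Cideb in every library, so reads of the pair could not be separated. Of the other overlaps, Gdf7 covers 2894 bases of Ldah but had at most 2 counts in a library, and Hdgfl2 shares 19 bases with Plin4. The pseudogene Gm12551 overlaps 5312 bases of Plin2, and the noncoding RNA gene Gm52871 overlaps 1256 bases of Cidec. Neither was found among the genes counted, and their part in the Plin2 and Cidec counts was not tested.

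**Figure D1:**
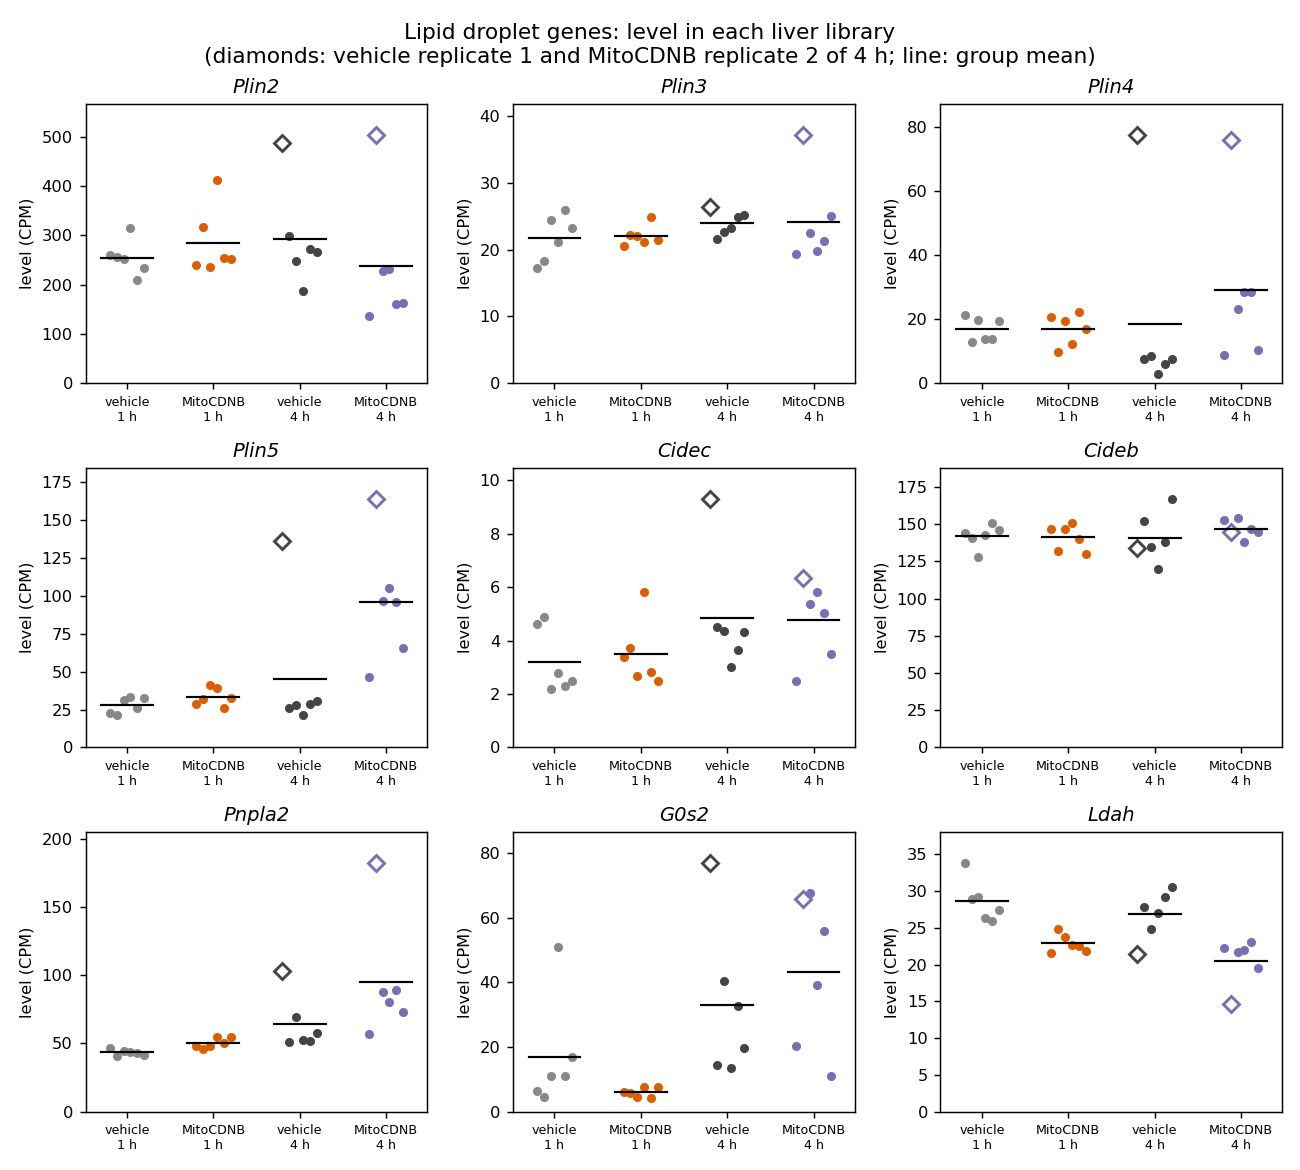
Panels plot the CPM of each of the 9 genes on a y axis that starts at 0, with the 4 groups on the x axis, a point per library (24 in all) and a line at the group mean. Open diamonds are the 4 h libraries that stand apart, and Plin4 is at 77.6 and 76.0 CPM in them. The MitoCDNB points of Ldah at 1 h (21.6 to 24.8 CPM) lie below all vehicle points.

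At 1 h the comparison asked what MitoCDNB had changed soon after injection. Of the 9 genes, Ldah fell and no other passed the threshold, an adjusted p under 0.05 in edgeR's quasi-likelihood test, at which 6.57% of all genes tested were called. Ldah encodes a hydrolase of the droplet surface. Its level was 26.0 to 33.8 CPM in vehicle (median 28.2) and 21.6 to 24.8 CPM with MitoCDNB (median 22.7). The groups did not overlap, which held for 1 of the 9 genes and for 4.74% of all genes. Ldah was lower by 0.32 on the log2 scale (log2 fold change -0.32, SE 0.0934, adjusted p = 0.0347), or 0.799 times the vehicle level. The call was close to the threshold and rested on the full set of libraries: it was kept in 4 of the 12 fits that each left out 1 library of 1 h, with adjusted p up to 0.103, and was lost with the replicate number as a block (0.0790). Replicates 1 to 3 alone gave a log2 fold change of -0.39 (adjusted p = 0.212) and replicates 4 to 6 alone -0.25 (0.508).

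G0s2, the inhibitor of Pnpla2, gave the largest log2 fold change of the 9 at 1 h without passing the test. In vehicle it ran from 4.57 to 50.9 CPM (median 11.1), and with MitoCDNB from 4.33 to 7.64 CPM (median 6.07). All 6 MitoCDNB libraries were below the vehicle mean, but the groups overlapped. The log2 fold change was -1.47 (SE 0.577, adjusted p = 0.162). Vehicle replicate 4 set much of this size, and without it the value was -0.73 (adjusted p = 0.546). The size also differed between the sets of replicates, at -0.39 in 1 to 3 and -2.02 in 4 to 6 (adjusted p = 0.892 and 0.302).

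Pnpla2 itself was at 41.0 to 47.0 CPM in vehicle and 46.1 to 54.9 CPM with MitoCDNB at 1 h, with a slight overlap. Its log2 fold change was 0.22 (adjusted p = 0.681) in the fit over all 4 groups and passed the test in a fit to the 1 h groups alone (adjusted p = 0.0289). The coat proteins showed no difference beyond the spread between livers. Plin2 had a log2 fold change of 0.16 with a 95% interval of -0.35 to 0.68, and Plin5 of 0.26 (-0.49 to 1.01). For Plin3 the value was 0.02 (-0.23 to 0.26), and for Plin4 it was 0.00 with a wide interval of -1.25 to 1.25. Over the 9 genes the median log2 fold change was 0.02, against 0.00 over all genes tested.

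**Figure D2:**
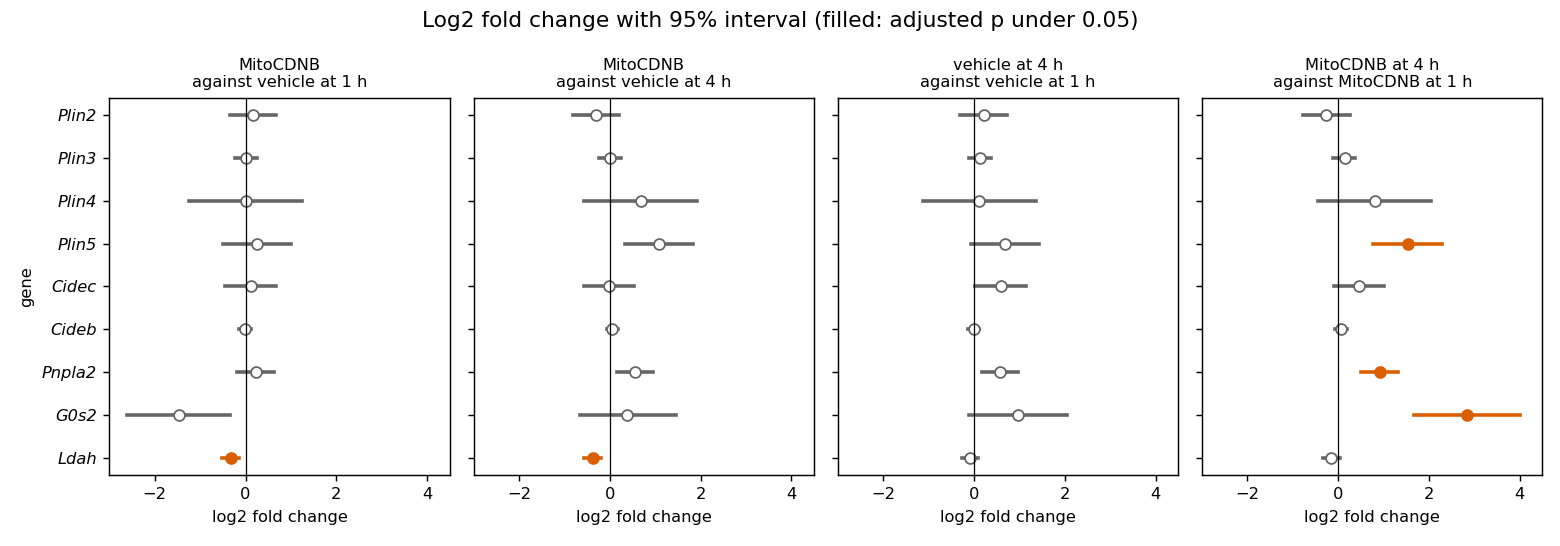
Log2 fold change of the 9 genes (x axis) with its 95% interval, in a panel for each of 4 comparisons, with the genes on the y axis. Filled points passed an adjusted p of 0.05: Ldah at 1 h (-0.32) and at 4 h (-0.38), and Plin5, Pnpla2 and G0s2 between 1 h and 4 h of MitoCDNB (1.53, 0.91 and 2.84).

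Ldah was again the only one of the 9 genes called at 4 h, where 0.824% of all genes tested were called and 0.896% had groups that did not overlap. It was at 21.5 to 30.5 CPM in vehicle (median 27.5) and at 14.7 to 23.1 CPM with MitoCDNB (median 21.8). The overlap came from vehicle replicate 1, the lowest of its group, and the lowest MitoCDNB value was that of replicate 2. The log2 fold change was -0.38 (SE 0.0935, adjusted p = 0.0481). As at 1 h, the call was marginal. It was kept in 3 of 12 fits without 1 library, with adjusted p up to 0.107, and it was lost with the replicate block (0.0857), without the count filter (0.0531) and in a fit to the 4 h groups alone (0.187). It was also lost without vehicle replicate 4 (-0.38, adjusted p = 0.0750) and kept without MitoCDNB replicate 1 (-0.41, 0.0493). Without the pair of libraries that stood apart it was -0.36 and passed. The sign of the Ldah difference was negative under every alternative and omission run, between -0.25 and -0.39 at 1 h and between -0.30 and -0.44 at 4 h.

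Plin5, which ties droplets to mitochondria, had the largest log2 fold change of the 9 at 4 h when all 24 libraries were used, without passing the test. Plin4 was larger without vehicle replicate 1. The level of Plin5 in vehicle was 21.2 to 30.5 CPM in replicates 2 to 6 and 136 CPM in replicate 1. With MitoCDNB it was 46.6 to 164 CPM (median 96.5). Apart from that vehicle library, every MitoCDNB liver was above every vehicle liver. The share of all genes separated in this way without that library is not given. Over all libraries the group means were 45.0 and 95.9 CPM and the log2 fold change was 1.09 (SE 0.382), which did not pass (adjusted p = 0.174). Without MitoCDNB replicate 2 it was 0.87 (adjusted p = 0.339). Leaving out vehicle replicate 1 gave 1.84 (adjusted p = 2.45e-04), and leaving out both libraries gave 1.62 (1.17e-04). Vehicle replicate 1 was left out with its high Plin5 level seen, so these small p values are a description and no test. With limma-voom and its quality weights, the log2 fold change was 1.47 (adjusted p = 0.00509). Plin5 was called at 4 h under 2 of 8 alternatives, with adjusted p up to 0.433, and in 1 of 12 fits without 1 library.

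Plin4, the neighbour of Plin5 on chromosome 17 at a distance of 1648 bases, was more variable. Vehicle replicates 2 to 6 were at 2.92 to 8.35 CPM and replicate 1 at 77.6 CPM. With MitoCDNB, replicate 2 was at 76.0 CPM and the others at 8.88 to 28.6 CPM. Without the pair, the lowest MitoCDNB liver, at 8.88 CPM, was just above the highest vehicle liver, at 8.35 CPM. The share of all genes separated in this way is not given. The log2 fold change was 0.68 with all libraries (SE 0.633, adjusted p = 0.694), 2.17 without vehicle replicate 1 (0.0124), 0.12 without MitoCDNB replicate 2 (0.965) and 1.62 without both (0.0186). The pair of high livers thus set both the mean and the spread of this gene.

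Pnpla2 was at 51.0 to 103 CPM in vehicle at 4 h (median 55.2) and at 56.6 to 182 CPM with MitoCDNB (median 84.3). The highest library of each group was again the one that stood apart, and the ranges overlapped. The log2 fold change of 0.56 (SE 0.204) did not pass (adjusted p = 0.184). It was 0.75 (0.0344) without vehicle replicate 1, 0.27 (0.430) without MitoCDNB replicate 2 and 0.46 (0.0186) without both. G0s2 spread from 13.4 to 76.9 CPM in vehicle and reached 67.6 CPM with MitoCDNB, where the median was 47.5 CPM, with a log2 fold change of 0.39 (adjusted p = 0.809). Without vehicle replicate 1, 4 of the 9 genes were called (Plin4, Plin5, Pnpla2 and Ldah), when 2.96% of all genes tested were called. Without both libraries the same 4 were called, against 1.78% of all genes. These counts follow a choice of libraries made in part on the levels of the same genes, and are a description only.

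**Figure D3:**
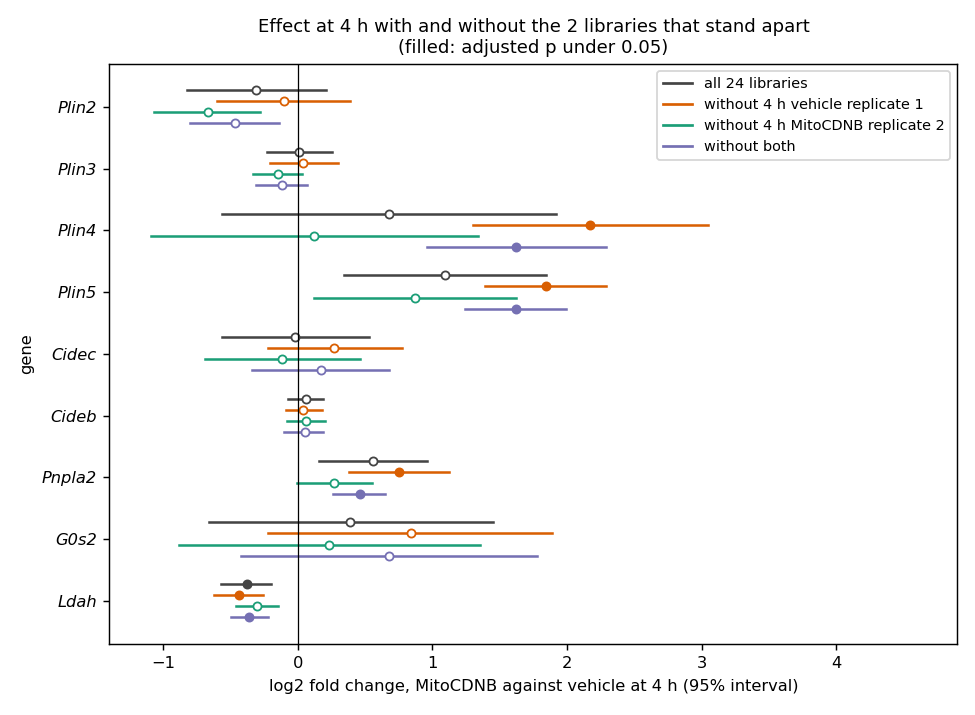
Log2 fold change for MitoCDNB against vehicle at 4 h (x axis) with its 95% interval for the 9 genes (y axis), fitted with all 24 libraries, without vehicle replicate 1, without MitoCDNB replicate 2, and without both. Filled points passed an adjusted p of 0.05. Plin4 moves from 0.68 to 2.17 and Plin5 from 1.09 to 1.84 when vehicle replicate 1 is left out, and Ldah stays between -0.30 and -0.44.

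Plin2 showed no gain at 4 h. It was at 188 to 487 CPM in vehicle (median 270) and at 136 to 504 CPM with MitoCDNB (median 196), with a log2 fold change of -0.31 (adjusted p = 0.660). Without MitoCDNB replicate 2, at 504 CPM, it was -0.67 (adjusted p = 0.129). Plin3 had a log2 fold change of 0.01, with an interval of -0.23 to 0.25. The CIDE genes, which govern droplet contact, also showed no difference beyond the spread. Cidec was at 3.01 to 9.30 CPM in vehicle and 2.48 to 6.35 CPM with MitoCDNB at 4 h, and its log2 fold change was -0.02 (interval -0.56 to 0.53) after 0.11 (-0.45 to 0.68) at 1 h. Cideb, with its reads shared with Nop9, had values of -0.01 (-0.14 to 0.12) at 1 h and 0.06 (-0.07 to 0.19) at 4 h, the narrowest intervals of the 9. Over the 9 genes the median was 0.06, against 0.00 over all genes.

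The difference between the MitoCDNB effects at 4 h and at 1 h was tested as an interaction, for which 4.07% of all genes (2.38% higher and 1.69% lower) and none of the 9 were called by edgeR. G0s2 was the 1 gene with an unadjusted p under 0.05, at 1.87 (SE 0.789, adjusted p = 0.219). DESeq2 called none, and limma-voom called Plin5. Plin5 was at 0.83 (adjusted p = 0.474) with all libraries and at 1.36 (0.00253) without the pair. Plin4 was at 0.68 (adjusted p = 0.785) and at 1.62 (0.0413) without the pair. For Ldah the interaction was -0.06 (interval -0.32 to 0.20), so its lower level was of similar size at both times within that interval.

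Time was compared within each treatment. In the sample titles all 4 h libraries are numbered before all 1 h libraries, so time after injection and library order cannot be told apart. Between 1 h and 4 h of vehicle, 5.44% of all genes were called, 2.99% higher and 2.46% lower. None of the 9 was called by edgeR, although Cidec and Pnpla2 had an unadjusted p under 0.05, which makes 2. DESeq2 called Pnpla2. Pnpla2 was at 41.0 to 47.0 CPM at 1 h and at 51.0 to 103 CPM at 4 h. Its groups did not overlap, as for 2.50% of all genes, and the log2 fold change was 0.57 (SE 0.205, adjusted p = 0.113), or 0.38 (0.0173) without the pair of libraries. Cidec had 0.59 (adjusted p = 0.255). Plin4 turned from 0.12 (adjusted p = 0.951) with all libraries to -1.38 (0.0162) without the pair. Of the pair, only vehicle replicate 1 of 4 h is in this comparison, and the MitoCDNB library enters through the shared fit. In the 12 fits without 1 library neither Pnpla2 (adjusted p at least 0.0939) nor Plin4 (at least 0.0756) passed.

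In MitoCDNB livers, Plin5, Pnpla2 and G0s2 rose between 1 h and 4 h, 3 of the 9 genes, when 28.5% of all genes were called and 15.1% were called higher. Calls were common in this comparison, and 3 of 9 is near the share of all genes called. G0s2 went from 4.33 to 7.64 CPM (median 6.07) at 1 h to a median of 47.5 CPM (highest 67.6) at 4 h without overlap of the groups, a log2 fold change of 2.84 (SE 0.592, adjusted p = 0.00112). Plin5 went from 26.3 to 40.9 CPM to 46.6 to 164 CPM, by 1.53 (SE 0.387, adjusted p = 0.00511). Pnpla2 went from 46.1 to 54.9 CPM to 56.6 to 182 CPM, by 0.91 (SE 0.205, adjusted p = 0.00186). For these 3 genes every 4 h liver was above every 1 h liver, as for 13.1% of all genes in either direction, and each call was kept in all 12 fits without 1 library. Transcripts of the lipase and of its inhibitor were thus both higher at 4 h than at 1 h of MitoCDNB, in different livers. With the 1 h replicates 1 to 3 alone, Plin5 missed the threshold (adjusted p = 0.0922), and with replicates 4 to 6 alone Plin5 (1.56, 0.0760) and Pnpla2 (0.83, 0.0671) did. Plin2 had -0.26 (adjusted p = 0.491) and passed without MitoCDNB replicate 2 of 4 h (-0.63, adjusted p = 0.0205). With all libraries, the difference of these rises from the change over the same hours in vehicle did not pass in edgeR for any of the 3, and limma-voom called it for Plin5 (1.19, adjusted p = 0.0428).

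How the genes varied among livers of a group was examined on log2 CPM with the group mean removed, over 24 libraries and all 36 pairs, with permutation tests within groups and Benjamini-Hochberg adjustment. In all, 20 of 36 pairs had an adjusted p under 0.05. Plin4 and Plin5 had a Pearson r of 0.88 and a Spearman rho of 0.57 (adjusted p = 0.00432 and 0.0567), and Plin4 and Pnpla2 had r 0.83 and rho 0.65 (0.00288 and 0.0254). Ldah ran opposite to Pnpla2 (r -0.74, rho -0.48, adjusted p = 0.0263 and 0.128). Most of these relations rested on the libraries that stood apart: without them 1 of 36 pairs passed over 22 libraries, Ldah and Pnpla2 were at r -0.08, and Plin4 and Plin5 at r 0.56 (adjusted p = 0.139). The pair that passed was Plin2 with Cidec, at r 0.70 and rho 0.69 (adjusted p = 0.0317 and 0.0295), after r 0.72 with all libraries (adjusted p = 0.00180). Leaving out the 2 libraries farthest from the median of Plin2 in the set of 22 gave r 0.60. Plin5 and G0s2 had r 0.68 and rho 0.73 with all libraries (adjusted p = 0.00180 and 0.00252) and r 0.67 and rho 0.70 without the pair (0.0529 and 0.0295). Within the 12 libraries of 1 h 0 pairs passed, and within the 12 of 4 h 20 did. With replicates 1 to 3 and 4 to 6 of 1 h centred apart, 20 passed.

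**Figure D4:**
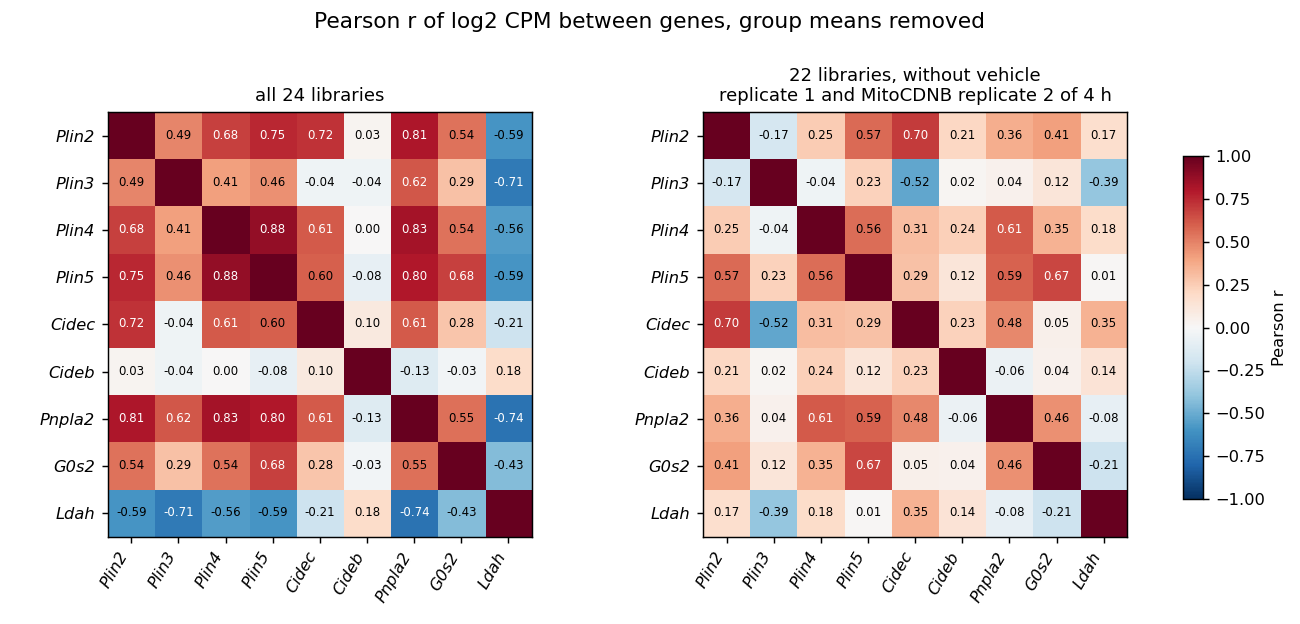
Pearson r of log2 CPM between each pair of the 9 genes after removal of the group means, in all 24 libraries (left) and in 22 libraries without vehicle replicate 1 and MitoCDNB replicate 2 of 4 h (right), coloured from -1 to 1. The block of values among Plin2, Plin4, Plin5 and Pnpla2 is paler at right, where Plin4 with Plin5 goes from 0.88 to 0.56, while Plin2 with Cidec stays at 0.70.

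Genes whose level varied most like that of members of the 9, again with group means removed, were taken as the highest Pearson r over 24 libraries and are given as a description. Plin5 was nearest to Galnt2 (r 0.91, and 0.58 without the pair of libraries) and the mitochondrial carrier gene Slc25a34 (0.91, and 0.81). Pnpla2 was nearest to Lpin2, which makes diacylglycerol for triglyceride synthesis (0.93, and 0.78). Cidec was nearest to Atg14, of autophagosome formation (0.85, and 0.82), and to the hepatocyte factor Hnf4a (0.83, and 0.76). For G0s2 they were Tox (0.82, and 0.78) and Ewsr1 (0.80, and 0.79), for Ldah Ncbp2 (0.84, and 0.54) and Hist2h3c2 (0.82, and 0.60), and for Cideb the overlapping Nop9 (0.99).

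Among the other 12 lipolysis genes, 3 rose and 0 fell with MitoCDNB at 1 h, against 2.70% and 3.87% of all genes. They were Hilpda, a droplet protein that inhibits Pnpla2, the lipase relative Pnpla3, and Abhd5, the activator of Pnpla2. Hilpda was at 0.785 to 1.37 CPM in vehicle and at 2.40 to 3.53 CPM with MitoCDNB, a log2 fold change of 1.55 (SE 0.165, adjusted p = 8.37e-07). Pnpla3 went from 0.787 to 1.75 CPM to 2.08 to 7.40 CPM, by 2.16 (SE 0.324, adjusted p = 1.08e-04). Neither gene's groups overlapped, although within replicates 4 to 6 Pnpla3 missed the threshold (1.77, adjusted p = 0.0909). Abhd5 rose by 0.39 (SE 0.112, adjusted p = 0.0327), from 20.7 to 25.7 CPM to 21.2 to 35.6 CPM, and its call was lost in 6 of 12 fits without 1 library. So an inhibitor and the activator of the lipase were higher at 1 h, while Pnpla2 and G0s2 did not pass the test. The median of the list was 0.10.

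By 4 h edgeR called none of the 12, and Pnpla3 was the 1 gene with an unadjusted p under 0.05 (1.03, adjusted p = 0.164). The effects on Hilpda and Abhd5 differed between the times, with interactions of -1.44 (SE 0.237, adjusted p = 6.00e-04) and -0.60 (SE 0.158, adjusted p = 0.0296). The Hilpda interaction passed in all 24 fits without 1 library, and that of Abhd5 in 19 of 24 and under 7 of 10 alternatives, with adjusted p up to 0.195. Hilpda was at 0.984 to 1.56 CPM in vehicle and at 1.10 to 1.77 CPM with MitoCDNB at 4 h. Over the same hours in MitoCDNB livers 3 of the 12 rose and 6 fell, against 15.1% and 13.4% of all genes, led by Hilpda (-1.27, adjusted p = 2.53e-06), the hormone-sensitive lipase gene Lipe (0.99, 3.83e-06), the lysosomal lipase gene Lipa (-0.56, 9.26e-06) and Pnpla3 (-1.87, 1.06e-04). In vehicle livers 2 rose, the cholesteryl ester hydrolase gene Nceh1 (0.86, adjusted p = 0.00106) and Lipe (0.73, 0.00138), and Lipa fell (-0.49, 7.83e-04).

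**Figure D5:**
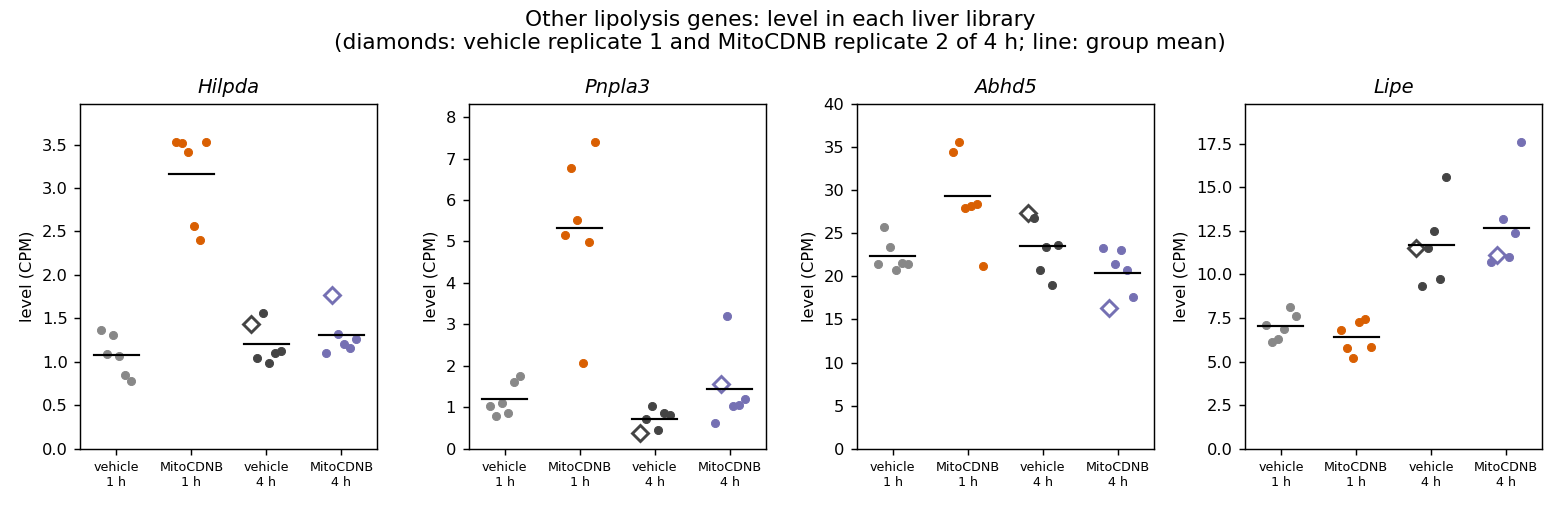
Panels plot the CPM of Hilpda, Pnpla3, Abhd5 and Lipe on a y axis that starts at 0, with the 4 groups on the x axis, a point per library, a line at the group mean and open diamonds for the 4 h libraries that stand apart. Hilpda and Pnpla3 with MitoCDNB at 1 h (2.40 to 3.53 and 2.08 to 7.40 CPM) lie above all vehicle livers of 1 h, and Lipe is higher at 4 h than at 1 h in both treatments.

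Triglyceride synthesis and droplet assembly was represented by 20 tested genes. At 1 h 1 rose, Dgat2, which makes triglyceride from diacylglycerol (0.29, SE 0.0831, adjusted p = 0.0301), and its call was kept in 6 of 12 fits without 1 library. None was called at 4 h by edgeR, with 2 at an unadjusted p under 0.05, and the smallest p was that of the acyl-CoA synthetase gene Acsl4 (0.37, adjusted p = 0.149). Between 1 h and 4 h of MitoCDNB 2 rose and 4 fell, a share near the 28.5% of all genes called (15.1% higher and 13.4% lower). Among them were the acyl-CoA synthetase gene Acsl3 (-1.33, adjusted p = 1.74e-07), the droplet budding gene Fitm2 (0.85, 9.47e-05), Lpin2 (-1.14, 0.00440) and Dgat2 (-0.32, 0.00515). Acsl3 fell in vehicle livers too (-0.82, adjusted p = 0.00101), the 1 gene of the list called there.

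Of 19 other proteins found on droplets, edgeR called 0 at 1 h, where 0 also had an unadjusted p under 0.05. At 4 h the methyltransferase-like gene Mettl7b fell (-0.35, SE 0.0846, adjusted p = 0.0435), a call kept in 2 of 12 fits without 1 library. Between 1 h and 4 h of MitoCDNB 2 of the 19 rose and 6 fell, led by the GTPase regulator gene Rab3gap1 (0.56, adjusted p = 2.11e-04), against 15.1% and 13.4% of all genes. None of 8 genes of very low density lipoprotein assembly was called by edgeR with MitoCDNB at either time, with 1 and 2 at an unadjusted p under 0.05. The smallest p values were those of Apobec1, the apolipoprotein B editing enzyme, at 1 h (0.54, adjusted p = 0.261) and Tm6sf2 at 4 h (0.34, 0.277). Between the times of MitoCDNB 3 fell, Apobec1 (-1.39, adjusted p = 3.82e-04), Pdia3 (-0.45, 0.00808) and Surf4 (-0.17, 0.0409), against 13.4% of all genes called lower. The Surf4 call was kept in 5 of 12 fits without 1 library and under 4 of 10 alternatives, with adjusted p up to 0.632.

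The 22 PPARα targets and fasting genes, a list that includes the class to which Plin2, Plin4 and Plin5 belong, held no call by edgeR for MitoCDNB at 1 h or at 4 h, with 2 and 1 at an unadjusted p under 0.05. Ucp2, an inner membrane carrier, had the smallest p at 1 h (0.40, adjusted p = 0.183), and Pdk4, which restrains pyruvate oxidation, at 4 h (1.02, 0.287). Pdk4 was at 0.20 without MitoCDNB replicate 2. Ppara itself rose between 1 h and 4 h in vehicle (0.52, adjusted p = 0.0235), a call lost without vehicle replicate 2 or 3 of 1 h or replicate 1 or 3 of 4 h, and in MitoCDNB (0.58, 0.00216). Over the same hours in MitoCDNB livers 4 of the 22 rose and 0 fell, against 15.1% and 13.4% of all genes. Besides Ppara, these were the acyl-CoA thioesterase gene Acot1 (1.19, adjusted p = 0.0246), the fatty acid hydroxylase gene Cyp4a10 (1.93, 0.0282) and the peroxisome gene Pex11a (0.71, 0.0327). The calls of Acot1, Cyp4a10 and Pex11a were kept in 7, 8 and 5 of 12 fits without 1 library and under 8, 5 and 7 of 10 alternatives. All 3 were lost without MitoCDNB replicate 2 of 4 h (adjusted p = 0.0689, 0.0998 and 0.107) and also without replicate 2 or 3 of 1 h. Other single libraries ended the call of 1 or 2 of them.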

How the data were processed

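RNA of 24 livers was measured as polyA RNA-seq. The submitters' processing notes name build mm10 and the tools HISAT2, Trim Galore, DESeq2 and CASAVA 1.8.4. The deposited values are raw counts per gene symbol made by the authors. The library kit was NEBNext Ultra RNA, per the labels' protocols, and it keeps no strand information. How reads were assigned to genes, by which counter and annotation, is not given in the sources used here. The 9 genes, the gene lists and the tests were chosen with earlier results of these data known. They are no independent evidence of direction.

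From the counts, genes were filtered with filterByExpr (minimum count 10, minimum total 15), which kept 13833 genes and removed 0.0306% of counts. Libraries were scaled by TMM, and the 4 groups were fitted in edgeR 4.0.16 (R 4.3.3, robust quasi-likelihood) over all 24 libraries. P values were adjusted by Benjamini-Hochberg over all genes tested and called under 0.05. The common biological coefficient of variation was 0.179. The SE is the log2 fold change over the square root of F, and 95% intervals are the normal ones from that SE. CPM used TMM-scaled library sizes, and exon lengths came from GENCODE M21 (GRCm38, the build also called mm10). Correlations used log2 CPM with a prior count of 2 and 100000 permutations. The named genes were the 9 in every comparison, up to 4 called genes of each list with the smallest p (or the gene with the smallest p where none was called), and the 2 genes most alike to each of the 9, skipping predicted genes and those under 1 CPM on average. A gene alike to Plin2 is not reported here. The fit was tested on simulated counts with known changes. Between libraries of a group, the chi-square of counts per degree of freedom was 16.2 to 577 over 60 pairs, so none was a duplicate. Alternatives were DESeq2 size factors, no filter, DESeq2 1.42.0, limma-voom (limma 3.58.1) with quality weights, fits to the 2 compared groups, a replicate block, no major urinary protein genes, fits without the 4 h libraries that stood apart, a term for or a restriction to the sets of 1 h replicates, and leaving out each library.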

Additional observations from a re-analysis of the deposited data

Results flagged for a closer look

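In 10 of the 36 sets of 6 values (9 genes in 4 groups), the highest library lay far from the rest, judged by the gap to the next library as a share of the whole range of the group, with a critical value of 0.625. With normally distributed values chance alone would mark about 1 set in 20, and whether these levels are so distributed was not tested. The sets are also not independent, since they share libraries. In vehicle replicate 1 of 4 h the share was 0.628 for Plin2, 0.927 for Plin4, 0.919 for Plin5, 0.764 for Cidec and 0.644 for Pnpla2. In MitoCDNB replicate 2 of 4 h it was 0.744 for Plin2, 0.688 for Plin3, 0.707 for Plin4 and 0.741 for Pnpla2. Over all genes tested, 2.10% and 2.65% were set apart in this way in these libraries, and 2.26% in vehicle replicate 4 of 4 h, where none of the 9 was. In vehicle replicate 1 of 4 h Plin5 was at 136 CPM, against 21.2 to 30.5 CPM in the other vehicle livers of that time. The remaining value was that of G0s2 in vehicle replicate 4 of 1 h, at 0.733, where the level was 50.9 CPM and the next highest of the group 16.9 CPM.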

How the results depend on the processing

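With the replicate number as a block, the count of the 9 genes called was 0 at 1 h and 0 at 4 h in place of 1, because the Ldah call was lost (adjusted p = 0.0790 and 0.0857). The block moved the count over all genes from 909 to 835 at 1 h and from 114 to 84 at 4 h. Whether the numbers pair livers was not settled by their correlation. Libraries of the same number correlated at -0.0666 to 0.212 at 1 h and -0.213 to 0.265 at 4 h. Of the 6 vehicle libraries at each time, 2 correlated best with their own number. The block changed no other call among the 9 genes.

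For MitoCDNB against vehicle at 1 h the count of the 9 called was 2 in the fit to the compared groups alone and 0 in replicates 1 to 3 or 4 to 6 alone, where all genes called numbered 244 and 256. It was 0 to 1 when single libraries were left out. At 4 h it was 0 without the count filter, 0 with the compared groups alone (18 genes called in all), 2 with limma-voom (227 in all, and 337 with DESeq2), 4 without the pair of libraries that stood apart (247 in all) and 0 to 4 without single libraries (63 to 412 in all). For the interaction it was 1 with limma-voom, 2 without the pair and 0 to 2 without single libraries. Over all genes it was 150 to 930 for the interaction and 177 to 1097 for vehicle over time. Between the vehicle groups the count of the 9 was 1 with DESeq2 and 2 without the pair, and between the MitoCDNB groups 1 with replicates 4 to 6 of 1 h alone. The count of related pairs was 1 without the pair of libraries.

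Apart from calls, 9 genes in 5 comparisons kept their sign in most fits: 27 of 432 values under other settings and 39 of 648 without a single library turned sign. None of these values had passed the test with all libraries, and Plin4 between the vehicle groups passed in the opposite direction without the pair (adjusted p = 0.0162). It passed in none of the 12 fits without 1 library. At 1 h Plin3 turned to -0.06 with replicates 4 to 6 alone, and Plin4 to -0.01 without the filter, -0.04 with limma-voom, -0.03 with the block, 0.00 without major urinary protein genes and -0.12 with replicates 1 to 3, where Cidec was at -0.26 and Cideb at 0.04. At 4 h Plin3 was at -0.05 with limma-voom, -0.02 with the block and -0.12 without the pair, and Cidec at 0.08, 0.04 and 0.17. For the interaction Plin3 was at 0.00 without the filter and 0.07 with replicates 4 to 6, Cidec at 0.06 without the pair and 0.24 with replicates 1 to 3, and Ldah at 0.01 with replicates 1 to 3. Between the vehicle groups Plin4 was at -0.96 with limma-voom, -0.49 with the block and -1.38 without the pair, Plin5 at -0.05 and Cideb at 0.00 without the pair, Cideb at 0.04 with replicates 1 to 3 and Ldah at 0.01 with replicates 4 to 6. Between the MitoCDNB groups Plin3 was at -0.03 without the pair. The cause of these turns was not tested.

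Without single libraries, values that turned sign ranged as follows. At 1 h the range was -0.04 to 0.08 for Plin3, -0.09 to 0.12 for Plin4, -0.09 to 0.27 for Cidec and -0.04 to 0.01 for Cideb. At 4 h it was -0.15 to 0.07 for Plin3 and -0.13 to 0.27 for Cidec. For the interaction it was -0.17 to 0.05 for Plin3, -0.29 to 0.16 for Cidec and -0.12 to 0.02 for Ldah. Over time it was -1.38 to 0.35 for Plin4, -0.05 to 0.84 for Plin5 and -0.07 to 0.03 for Cideb in vehicle, and -0.03 to 0.19 for Plin3 in MitoCDNB. Counts were lowest for Cidec, at 63 to 267 per library.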
